A study of Mus musculus with 9 samples.

Results

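The 10 genes described here are nuclear copies of mitochondrial genes: stretches of the mouse genome on chromosomes 1 and 2 that nearly repeat the sequence of genes of the mitochondrial DNA. They are Gm28439, Gm10222, Gm28438, Gm28437, Gm10925, Gm28661 and Gm29216 on chromosome 1, and Gm13341, Gm13340 and Gm13339 on chromosome 2. They were taken by name from the 33732 gene names of the deposited table, and were chosen by their levels in HuR RIP and IgG RIP in an earlier look at these data, so the contrast of HuR with IgG is described for them and not tested. Their levels came from RNA immunoprecipitation sequencing (RIP-seq), in which an antibody pulls a protein out of a lysate and the RNA that comes with it is sequenced. The samples were whole healthy livers of wild-type C57BL/6 mice aged 8 weeks, and all groups share this strain, tissue and age. Sex appears mixed, as the column names of the HuR and IgG libraries carry an M or an F, apparently for male and female. The groups were 3 HuR pull-downs, 3 control IgG pull-downs and 3 Input libraries, the last seen only as the authors' mean. Each pull-down was made under native conditions from the lysate of 1 mouse liver. HuR is encoded by Elavl1 and is known for binding messenger RNA at U-rich and AU-rich stretches. The series states that it looked for the RNAs that HuR targets in mouse liver.

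The mitochondrial genome encodes core subunits of the respiratory chain and of ATP synthase, and its transcripts are made and translated inside the organelle and are abundant in hepatocytes. Over evolution, pieces of mitochondrial DNA have been inserted into nuclear chromosomes, where they decay as pseudogenes and are not translated by the mitochondrial code. A short read from a young insertion can carry exactly the same letters as a read from the mitochondrial transcript.

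The 10 copies lie in a pair of clusters that each keep the mitochondrial gene order. Coordinates are those of GENCODE M21 on GRCm38, also called mm10, the build named in the submitters' processing notes, and sequences are those of its transcripts. The chromosome 1 cluster covers chr1:24611535-24616197 on the minus strand, 4663 bases that stand against 4653 bases of mitochondrial DNA from mt-Co1 to mt-Nd4. The chromosome 2 cluster covers chr2:22587291-22590533 on the minus strand, 3243 bases that stand against 3255 bases from mt-Nd2 to mt-Co2. All 10 are annotated as unprocessed pseudogenes with a single exon. The chromosome 2 copies sit inside an intron of Myo3a, a myosin gene on the plus strand at chr2:22227503-22618252, and 0 Myo3a exons lie within the cluster. Myo3a itself was at or below 0.0188 RPKM in every RIP library. On chromosome 1 the Nd4 and Nd4l copies overlap each other, as the mitochondrial genes do, and no other annotated gene overlaps any of the copies there.

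The clusters differ in how closely they match the mitochondrial DNA. Of the 7 copies on chromosome 1, 5 matched the mitochondrial gene at every base over their whole length. The sequence of Gm10222, the copy of mt-Nd4l at chr1:24612407-24612700, is shown because it was the copy with the highest mean level and is letter for letter the mitochondrial sequence, with no base in capitals as none differs.
Gm10222: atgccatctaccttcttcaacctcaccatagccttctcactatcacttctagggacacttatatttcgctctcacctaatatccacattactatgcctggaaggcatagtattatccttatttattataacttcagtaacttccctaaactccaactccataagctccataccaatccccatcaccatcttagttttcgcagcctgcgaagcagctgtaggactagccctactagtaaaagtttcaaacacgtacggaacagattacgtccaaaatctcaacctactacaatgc

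The other copies on chromosome 1 carried a single substitution each. Gm28438, the copy of mt-Nd3, has T3C, and Gm29216, the copy of the end of mt-Co1, has A1066T, with positions counted from 1 at the first base of the mitochondrial gene and the mitochondrial base given first. Their windows are shown beside the mitochondrial ones because these single letters are all that sets the copies apart within the aligned stretch, which leaves out the first 9 bases of Gm29216. Capitals mark the differing base.
Gm28438 (chr1:24613097-24613119): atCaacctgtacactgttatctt
mt-Nd3: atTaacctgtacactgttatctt
Gm29216 (chr1:24616165-24616188): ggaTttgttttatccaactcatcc
mt-Co1: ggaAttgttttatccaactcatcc

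The chromosome 2 copies differ at more bases. Gm13341 was 95.9% identical to mt-Co2, with 16 substitutions and a gap of 12 bases. Gm13340 was 97.6% identical to the whole of mt-Co1, with 37 substitutions, and Gm13339 was 96.7% identical to the end of mt-Nd2, with 17. Of these substitutions, 14 of 16 in Gm13341, 31 of 37 in Gm13340 and 12 of 17 in Gm13339 fall at the third codon position of the mitochondrial gene. Transitions, exchanges between A and G or between C and T, made up 13, 33 and 15 of them. The longest run of unbroken identity was 173 bases in Gm13341, 148 in Gm13340 and 129 in Gm13339. These windows are shown because a read over them has letters of its own in each sequence, and capitals mark the differing bases and, in mt-Co2, also the bases that Gm13341 lacks.
Gm13341 (chr2:22587497-22587564): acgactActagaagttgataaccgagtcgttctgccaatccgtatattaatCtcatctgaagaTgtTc
mt-Co2: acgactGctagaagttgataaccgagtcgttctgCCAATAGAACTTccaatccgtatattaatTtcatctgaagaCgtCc
Gm13340 (chr2:22589129-22589188): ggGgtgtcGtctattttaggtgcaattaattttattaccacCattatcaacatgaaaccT
mt-Co1: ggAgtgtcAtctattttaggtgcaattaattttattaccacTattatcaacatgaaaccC
Gm13339 (chr2:22590336-22590395): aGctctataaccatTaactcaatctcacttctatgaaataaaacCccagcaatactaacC
mt-Nd2: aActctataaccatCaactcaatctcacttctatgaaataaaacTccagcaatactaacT

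**Figure D1:**
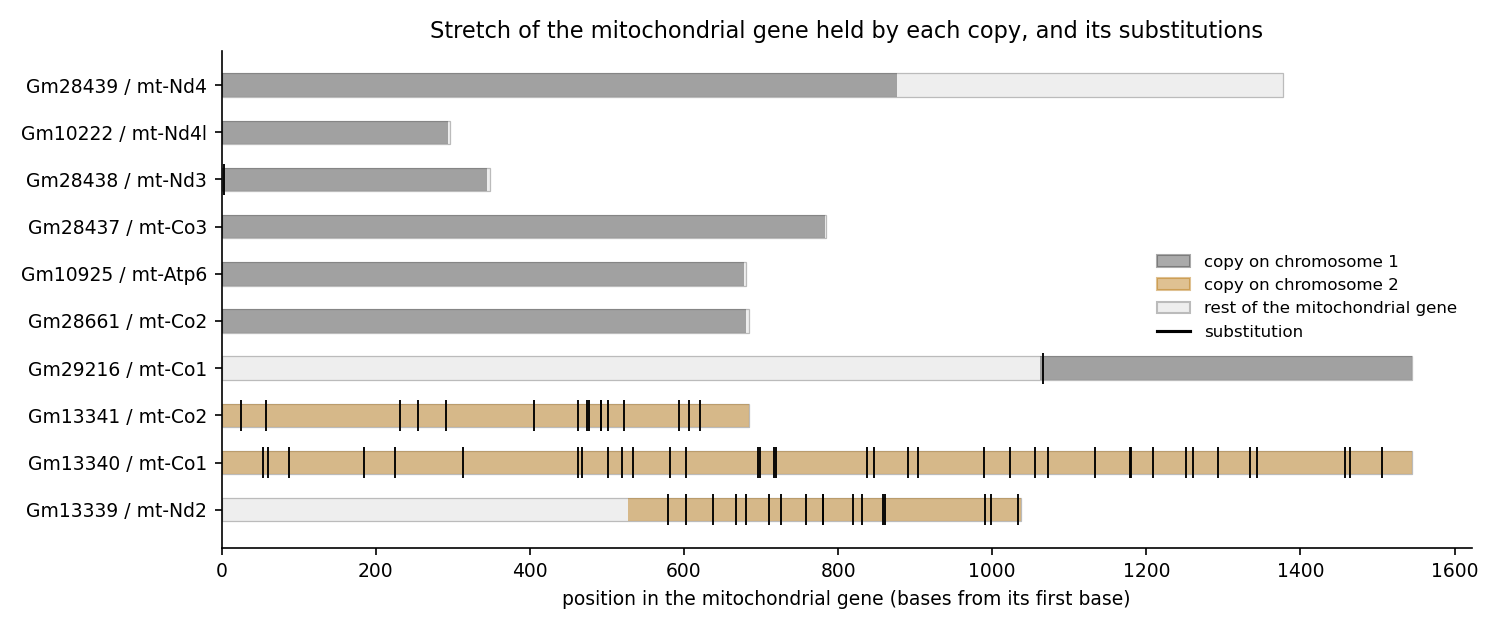
Each row is 1 copy, and the x axis is the position in its mitochondrial gene in bases. Coloured bars show the stretch that the copy holds, pale bars the rest of the gene, and black ticks the substitutions, which number 0 or 1 in the copies on chromosome 1 and 16, 37 and 17 in Gm13341, Gm13340 and Gm13339 on chromosome 2.

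The deposited table has 0 lines on the mitochondrial genome, and how reads that match several places were handled is not given in the sources used here. For the copies on chromosome 1, reads from the copy and reads from the mitochondrial gene therefore cannot be told apart over nearly all of their length. Every level below is the level listed under the name of the copy and carries this limit. The authors' values are RPKM, reads scaled by feature length and library size. An exon listed on several lines enters the level of its gene with each line, while each copy has a single line. Levels of genes with repeated lines are therefore not on quite the same scale as those of the copies.

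The library sizes behind the RPKM were 26.3 to 26.9 M reads in HuR RIP and 15.8 to 28.8 M reads in IgG RIP (M, mega), of which 27.9 to 60.5% and 44.3 to 54.0% lay in listed exons. These percentages sum all 388562 lines of the deposited table, which hold 209925 distinct exons. An exon on several lines enters with each of them. All 8 hepatocyte markers were above 0 in every RIP library, with a summed level of 801 to 920 RPKM with HuR, 292 to 761 RPKM with IgG and 767 RPKM in the Input mean. Markers of other liver cell types were mostly low. The 6 stellate cell markers summed to 4.33 to 12.7 RPKM in HuR RIP, against 0.462 to 4.36 RPKM in IgG RIP. The 6 markers of sinusoidal endothelium summed to 4.59 to 8.88 RPKM with HuR and 0.43 to 3.33 RPKM with IgG, and the 6 of T and B lymphocytes to 0.0681 to 4.75 RPKM with HuR and 0 to 0.132 RPKM with IgG. The 6 Kupffer cell markers summed to 4.13 to 9.73 RPKM with HuR and 2.28 to 8.28 RPKM with IgG. Of the sums given so far, those of stellate cells, lymphocytes and Kupffer cells overlapped between groups. The 4 cholangiocyte markers reached at most 2.99 RPKM, and the 5 erythroid genes summed to 64.5 to 172 RPKM with HuR and 98.7 to 234 RPKM with IgG. No marker of any of these lists was at 0 in all 6 RIP libraries. The filter on low values was passed by 8 hepatocyte, 4 Kupffer cell, 3 endothelial, 4 stellate, 1 cholangiocyte, 5 erythroid and 0 lymphocyte markers. Of those, limma called 0, beside 0.672% of all genes called higher and 0.127% called lower. Before adjustment, 1 of the 8 hepatocyte, 1 of the 3 endothelial and 2 of the 4 stellate markers were higher. This was at p under 0.05 in limma, beside 27.9% of all genes. The median log2 fold change of the markers that passed the filter was 0.69 for hepatocytes, 0.31 for endothelium, 1.05 for stellate cells and 0.18 for Kupffer cells, beside 0.92 for all genes. Their part in the results was not tested. One mismatch touches the numbering of the HuR libraries. The table's columns carry an M for HuR 2 and an F for HuR 3, while Xist was at 10.2 RPKM in the library labelled HuR 2 and at 0.463 RPKM in the one labelled HuR 3. The 4 Y-linked genes Ddx3y, Eif2s3y, Kdm5d and Uty summed to 0.041 RPKM in HuR 2 and 3.52 RPKM in HuR 3. The authors' fold columns also exchange these libraries, so their numbers may be swapped, while both stay in the HuR group.

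Together the 10 copies took 0.798%, 0.649% and 0.453% of listed reads across HuR 1 to 3, against 0.0877%, 0.0351% and 0.0421% across IgG 1 to 3 and 0.103% in the Input mean. The share averaged 0.633% ± 0.173 in HuR RIP and 0.0549% ± 0.0285 in IgG RIP (SD, n = 3 each), 11.5-fold higher in HuR RIP. The lowest HuR library lay above the highest IgG library. The widest 95% Wilson interval of a library's share was 0.0116 percentage points, which covers counting error only, as reads are not independent molecules. In a lysate of whole liver, fewer cells of a type and less RNA per cell cannot be told apart. The ribosomal repeat takes an unequal part of the reads across libraries, and outside it the share was 1.10% ± 0.424 in HuR RIP and 0.114% ± 0.0166 in IgG RIP, with 0.386% in the Input mean. Among reads of protein-coding genes, the copies' reads came to 2.83% ± 0.731 of that total in HuR RIP and 0.394% ± 0.114 in IgG RIP, with 0.717% in the Input mean. The IgG share was below the Input share, and the HuR share above it, under each of these denominators. Each denominator takes repeated lines of an exon as they stand, and none was computed with distinct exons counted once.

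Every copy had a higher level in each HuR library than in any IgG library. All 10 passed the filter on low values, which asked for 0.5 RPKM in 3 or more of the 6 RIP libraries, and all 10 had groups that did not overlap, with HuR higher. The same held for 31.3% of the 5510 genes that passed the filter. Of the copies, 9, all but Gm13340, had at least 2-fold between the lowest HuR and the highest IgG library, against 13.2% of all genes. In the limma fit across all genes, with Benjamini-Hochberg adjustment, 1 copy was called higher, Gm13341, and 0 were called lower, beside 0.672% of all genes called higher and 0.127% called lower. Without IgG 1, 10 copies were called, beside 38.6% of the 4559 genes then tested, and without IgG 2, 0 copies and 0 genes were called higher. The call counts follow from the contrast by which the copies were put forward and are given as a description.

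**Figure D2:**
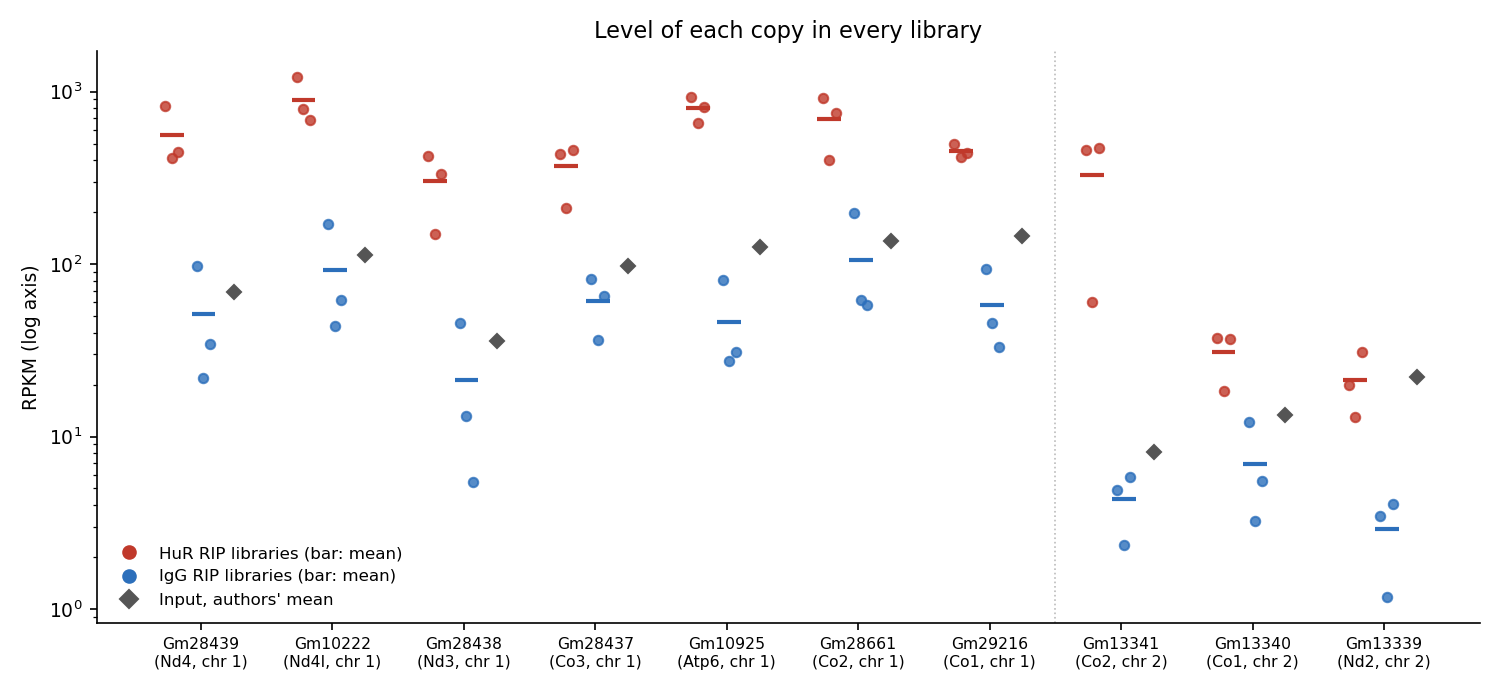
The y axis is RPKM on a log axis and each column of points is 1 copy, with the 3 HuR libraries at left, the 3 IgG libraries in the middle and the Input mean at right, and bars at group means. In every copy the HuR points lie above the IgG points. The copies on chromosome 2, right of the dotted line, have lower means except for Gm13341 in HuR RIP.

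Of the 10, 4 are copies of complex I genes. Complex I, NADH dehydrogenase, passes electrons into the respiratory chain, and mt-Nd2, mt-Nd3, mt-Nd4 and mt-Nd4l encode core subunits of its membrane arm. Gm28439, which holds the first 876 of 1378 bases of mt-Nd4 (chr1:24611535-24612410), had 828, 412 and 449 RPKM across HuR 1 to 3, against 97.3, 21.9 and 34.45 RPKM across IgG 1 to 3. Input was at 68.7 RPKM. HuR 1 stood apart at the top of its group and IgG 1 at the top of the other, and the groups did not overlap. The mean was 563 ± 230.3 RPKM with HuR and 51.2 ± 40.4 RPKM with IgG (SD, n = 3 each), 11-fold higher in HuR RIP, and the fitted log2 fold change was 3.66 (SE 1.07).

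Gm10222, the Nd4l copy printed above, had 1219, 790.4 and 688 RPKM across HuR 1 to 3, against 169.8, 44.0 and 62.2 RPKM across IgG 1 to 3. Input was at 112 RPKM. The order of the libraries followed that of the Nd4 copy except that HuR 3 was the lowest of its group. The means were 899 ± 282 RPKM with HuR and 92.0 ± 68.0 RPKM with IgG (SD, n = 3 each), 9.77-fold higher in HuR RIP, with a log2 fold change of 3.48 (SE 1.07). The ratio of Gm10222 to Gm28439 ran from 1.47 to 1.92 in HuR RIP, from 1.74 to 2.01 in IgG RIP and was 1.64 in Input, so the pair kept nearly the same proportion throughout. The pair shares 4 bases where they overlap.

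Gm28438, the Nd3 copy (chr1:24612775-24613119), had 424, 149 and 331 RPKM across HuR 1 to 3, against 45.2, 13.2 and 5.43 RPKM across IgG 1 to 3, with 36.0 RPKM in Input. HuR 2 was the low library of its group and IgG 3 of the other. Its log2 fold change was 4.15 (SE 1.10), the means differing 14.1-fold. Gm13339, the Nd2 copy on chromosome 2 (chr2:22590024-22590533), was far lower, with 19.8, 13.0 and 31.1 RPKM across HuR 1 to 3, against 3.46, 1.18 and 4.08 RPKM across IgG 1 to 3. It was also the thinnest in reads, between 16 in IgG 2 and 427 in HuR 3. Its Input level of 22.0 RPKM lay above HuR 1 and 2, which sets it apart from the other 9 copies. The log2 fold change of Gm13339 was 2.72 (SE 0.86) and its means differed 7.34-fold.

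The copies of cytochrome c oxidase genes gave the widest range. Cytochrome c oxidase, complex IV, hands electrons to oxygen, and mt-Co1, mt-Co2 and mt-Co3 encode its catalytic core. The Co2 copies are present in both clusters. Gm28661 on chromosome 1 (chr1:24614885-24615565) had 917, 403 and 753 RPKM across HuR 1 to 3, against 197, 61.97 and 58.3 RPKM across IgG 1 to 3, with 135 RPKM in Input. Its HuR 2 value was 2.05-fold above its IgG 1 value, the narrowest gap between groups within the chromosome 1 cluster. The log2 fold change was 2.86 (SE 1.07).

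Gm13341 on chromosome 2 (chr2:22587291-22587962) had 459, 60.2 and 469 RPKM across HuR 1 to 3, against 4.88, 2.34 and 5.83 RPKM across IgG 1 to 3. Input was at 8.13 RPKM. HuR 1 and 3 were close to each other and HuR 2 was far below them, while the lowest HuR library was still 10.3-fold above the highest IgG library. The means were 329.7 ± 233 RPKM with HuR and 4.35 ± 1.80 RPKM with IgG (SD, n = 3 each), 75.7-fold higher in HuR RIP, and the log2 fold change was 5.68 (SE 1.07). In reads, this copy had 8217, 1065 and 8488 across HuR 1 to 3, and 52, 42 and 113 across IgG 1 to 3. Without HuR 2 the log2 fold change was 6.66. The call was followed in 16 alternative settings, which do not include a limma fit with no trend. It was lost without IgG 2, with libraries centred at their medians, or with no filter on low values. It was also lost with distinct exons counted once, or with the replicate number as a block in the fit.

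The proportion of the Co2 copies to each other differed between groups. Gm13341 stood at 0.501, 0.149 and 0.623 of the level of Gm28661 across HuR 1 to 3, against 0.0248, 0.0378 and 0.10 across IgG 1 to 3, and 0.0601 in Input. All 3 HuR ratios lay above all 3 IgG ratios and above Input. The copies are 95.9% identical over 681 bases, with 173 bases as the longest shared run. The Co1 copies did not show this pattern. Gm13340 stood at 0.0753, 0.0437 and 0.0829 of the level of Gm29216 across HuR 1 to 3, against 0.128, 0.0711 and 0.167 across IgG 1 to 3, and 0.0924 in Input. Here the groups overlapped, and the HuR ratios lay below that of Input. Within the chromosome 2 cluster itself, Gm13341 was 12.3, 3.28 and 12.8 times the level of its neighbour Gm13340 across HuR 1 to 3, against 0.404, 0.726 and 1.06 times across IgG 1 to 3, and 0.607 times in Input. The pair lies side by side on the same strand, and the order of their levels differed between HuR RIP and Input.

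Gm29216, the copy of the last part of mt-Co1 (chr1:24615706-24616197), had 497, 419.8 and 442 RPKM across HuR 1 to 3, against 94.2, 45.4 and 32.9 RPKM across IgG 1 to 3, with 145 RPKM in Input, the highest Input level of the 10. Its HuR libraries were the closest together in proportion to their mean, at 453 ± 39.7 RPKM (SD, n = 3). Its log2 fold change was 3.10 (SE 1.05). Gm13340, the whole-length copy of mt-Co1 on chromosome 2 (chr2:22588103-22589647), had 37.4, 18.3 and 36.6 RPKM across HuR 1 to 3, against 12.1, 3.23 and 5.50 RPKM across IgG 1 to 3, with 13.4 RPKM in Input. It had the smallest log2 fold change of the 10, 2.19 (SE 0.93), and its lowest HuR library was 1.52-fold above its highest IgG library. Gm28437, the Co3 copy (chr1:24613189-24613971), had 435, 211 and 459 RPKM across HuR 1 to 3, against 81.6, 36.3 and 64.9 RPKM across IgG 1 to 3, with 97.6 RPKM in Input. Its means differed 6.05-fold, the smallest fold on chromosome 1, and its log2 fold change was 2.58 (SE 1.06).

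Gm10925 copies mt-Atp6, which encodes a membrane subunit of ATP synthase through which protons pass (chr1:24613974-24614651). It had 928, 657 and 817 RPKM across HuR 1 to 3, against 80.4, 27.6 and 31.0 RPKM across IgG 1 to 3. Input was at 126 RPKM. The means were 801 ± 136 RPKM with HuR and 46.3 ± 29.5 RPKM with IgG (SD, n = 3 each), 17.3-fold higher in HuR RIP, and the log2 fold change of 4.26 (SE 1.06) was the largest on chromosome 1. Its part of the summed level of the chromosome 1 cluster was 17.7%, 21.6% and 20.7% across HuR 1 to 3, against 10.5%, 11.02% and 10.7% across IgG 1 to 3, and 17.5% in Input. The HuR libraries lay near Input and the IgG libraries below both. The part of its neighbour Gm28661 went the other way, with 17.5%, 13.3% and 19.1% across HuR 1 to 3, against 25.7%, 24.8% and 20.2% across IgG 1 to 3, and 18.8% in Input. Copies that are equally identical to the mitochondrial DNA thus did not keep 1 fixed proportion between the pull-downs.

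**Figure D3:**
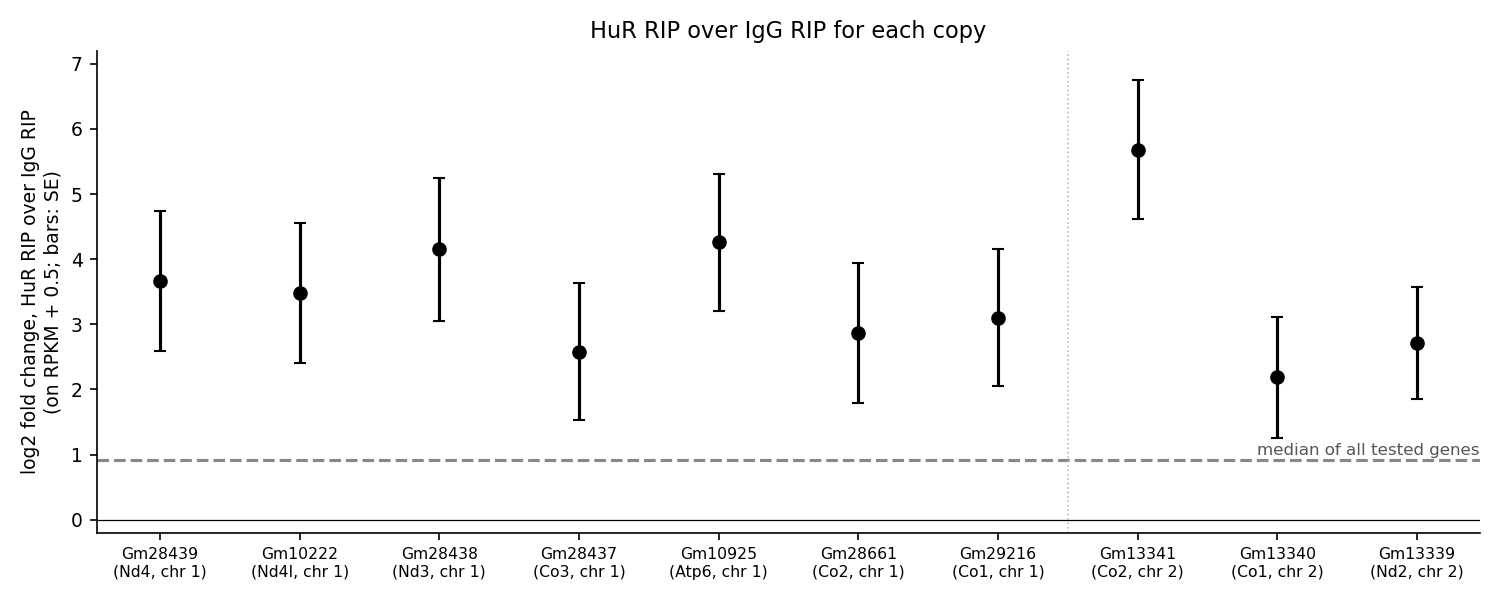
Points give the fitted log2 fold change of HuR RIP over IgG RIP for each copy on RPKM + 0.5, and bars its SE. The dashed line is the median of all 5510 tested genes, 0.92, and the copies lie between 2.19 and 5.68.

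The median log2 fold change of the 10 copies was 3.29, against 0.92 for all 5510 genes, of which 79.1% were positive. Relative to that median, the copies stood 2.37 higher. Their lowest value, that of Gm13340, exceeded 92.1% of all genes. The median over the 7 copies on chromosome 1 was 3.48, and that over the 9 copies without Gm13341 was 3.10. The scaling of the libraries bears on the size: the median was 2.19 with libraries centred at their medians and 1.67 with TMM scaling. HuR 2 was the lowest HuR library for 9 of the 10 copies, and IgG 1, the shallowest library, was the highest IgG library for 8. HuR 2 was also the HuR library with the highest Xist level and the lowest level of the Y-linked genes. The part of sex was not tested.

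Against the lysate, HuR RIP and IgG RIP went in opposite directions. Input is a mean with no replicates, so these are values without a test. All 3 HuR libraries were above the Input mean for 9 of the 10 copies, where 68.9% of all genes did the same, and all 3 IgG libraries were below it for 6 of the 10, where 6.88% of all genes did. The median log2 ratio to Input over the copies was 2.82, 1.80 and 2.54 across HuR 1 to 3, against -0.20, -1.62 and -1.21 across IgG 1 to 3. With each copy averaged over libraries first, the median over the copies was 2.46 with HuR and -0.997 with IgG. It was 1.43 with HuR and -1.72 with IgG when all were scaled to exons outside the ribosomal repeat. IgG 1 was above Input for Gm28439, Gm10222, Gm28438 and Gm28661, and no other IgG library was above Input for any copy. By copy, the mean of HuR RIP was 40.5 times Input for Gm13341, between 3.13 and 8.37 times for the copies on chromosome 1, 2.30 times for Gm13340 and 0.969 times for Gm13339.

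**Figure D4:**
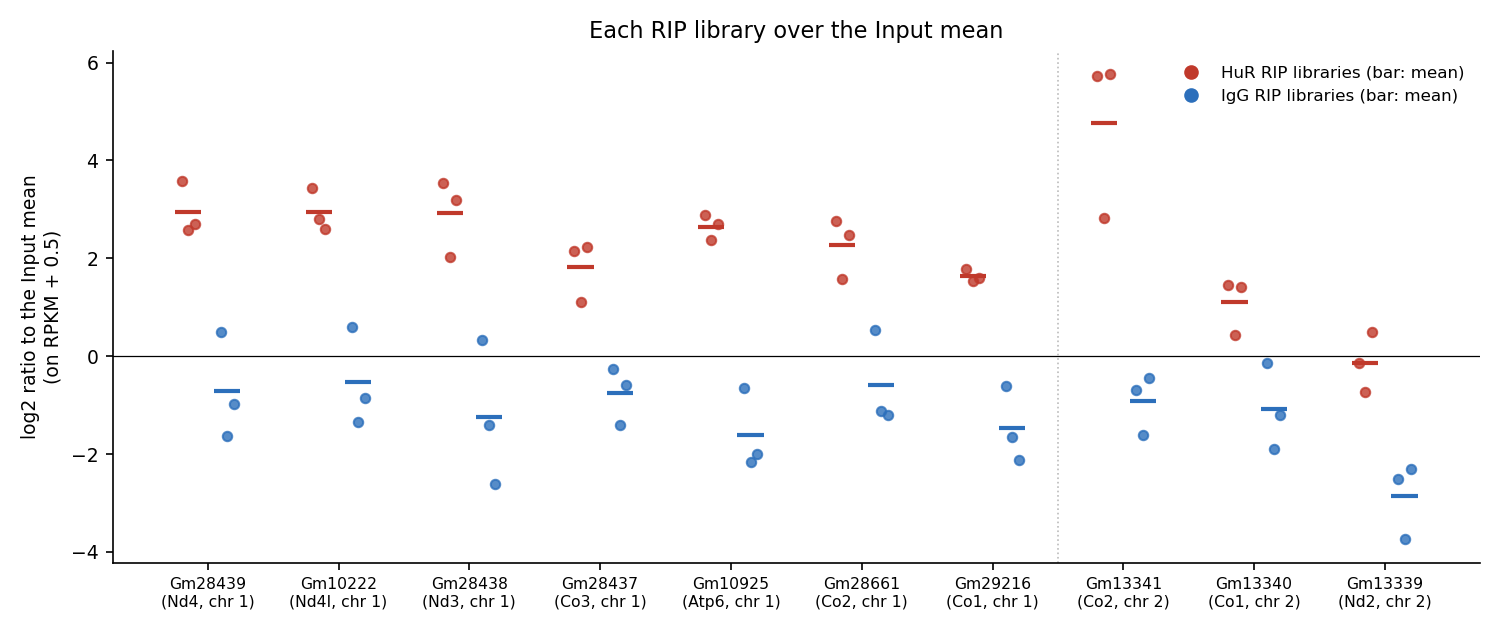
The y axis is the log2 ratio of each RIP library to the Input mean on RPKM + 0.5, with HuR libraries at left and IgG libraries at right of each copy and bars at the means. HuR points lie above 0 for 9 copies and on both sides of it for Gm13339, and IgG points lie below 0 except those of IgG 1 in Gm28439, Gm10222, Gm28438 and Gm28661.

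The clusters differed in median level in every library. Their ranges overlapped in HuR 1, HuR 3 and IgG 3. There the highest chromosome 2 copy was at 459, 469 and 5.83 RPKM. The lowest chromosome 1 copy was at 424, 331 and 5.43 RPKM. The median level of the 7 copies on chromosome 1 was 828, 412 and 459 RPKM across HuR 1 to 3, against 94.2, 36.3 and 34.45 RPKM across IgG 1 to 3, and 112 RPKM in Input. For the 3 copies on chromosome 2 it was 37.4, 18.3 and 36.6 RPKM across HuR 1 to 3, against 4.88, 2.34 and 5.50 RPKM across IgG 1 to 3, and 13.4 RPKM in Input. The chromosome 1 copies took between 85.9% and 95.8% of the copies' reads in HuR RIP, between 92.5% and 95.4% in IgG RIP, and 92.0% in Input. Within a cluster the order of levels did not follow identity. In Input, Gm29216, which carries a substitution, was above the 5 fully identical copies, and Gm13339 was above Gm13340.

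A search of annotated transcripts by sequence found 21 other listed nuclear copies, which show how low the level was among less identical ones. Of these, 18 were above 0 in a RIP library and 4 passed the filter. limma called 0 of the 4, with 2 higher and 0 lower where p without adjustment was under 0.05, beside 27.9% of all genes higher. Their median log2 fold change was 1.54. The 5 other copies with 90.7 to 95.2% identity had a median level of 4.24 RPKM with HuR, 0.889 RPKM with IgG and 0.368 RPKM in Input. The 16 under 90% had medians of 0.121 RPKM with HuR, 0 RPKM with IgG and 0.0328 RPKM in Input. Set beside these, the chromosome 2 copies had medians of 30.8 RPKM with HuR, 4.35 RPKM with IgG and 13.4 RPKM in Input. The chromosome 1 copies had 563 RPKM with HuR, 57.5 RPKM with IgG and 112 RPKM in Input.

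By the rule for naming, which took the highest mean over the RIP libraries, 5 of the other copies are given with their values. Gm20594, on chromosome 6 and 88.4% identical to the ribosomal RNA gene mt-Rnr2, had 13.8, 8.80 and 5.96 RPKM across HuR 1 to 3, against 18.4, 8.94 and 8.03 RPKM across IgG 1 to 3. Its Input level of 64.3 RPKM was above all 6, and its groups overlapped. Gm11407, 92.4% identical to mt-Nd5, had 14.8, 4.85 and 5.90 RPKM across HuR 1 to 3, against 1.85, 0.426 and 2.36 RPKM across IgG 1 to 3, and its log2 fold change of 2.13 had an SE of 0.81 and an adjusted p of 0.0995 in limma. Gm4076, 95.2% identical to mt-Nd5, had means of 4.24 ± 1.09 RPKM with HuR and 1.75 ± 1.20 RPKM with IgG (SD, n = 3 each). Gm11408, 93.6% identical to mt-Nd6, was at 4.29 ± 2.97 RPKM with HuR and 0.889 ± 0.979 RPKM with IgG (SD, n = 3 each). Gm43841, 83.7% identical to mt-Cytb, had 6.60, 0.194 and 12.7 RPKM across HuR 1 to 3 and was listed at 0 in all 3 IgG libraries, with 0.0411 RPKM in Input. As with Gm13341, its HuR 2 value was far below those of HuR 1 and 3.

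**Figure D5:**
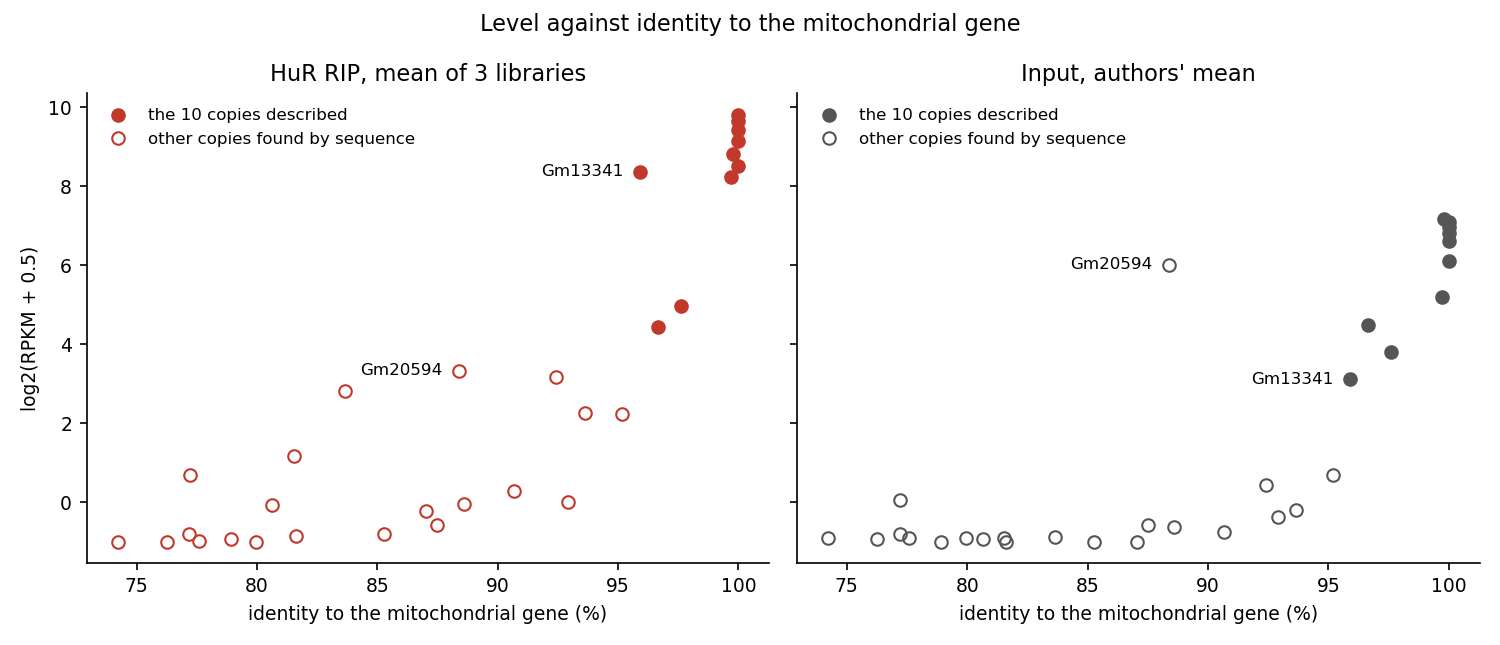
The x axis is identity to the mitochondrial gene in percent and the y axis log2(RPKM + 0.5), for the HuR RIP mean at left and the Input mean at right, with filled points for the 10 copies and open points for the 21 others. Levels are highest at 99% identity and above, Gm13341 stands above the other copies of like identity in HuR RIP but not in Input, and Gm20594 stands out in Input.

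Sequence elements that HuR is known to bind were looked up in the copies on both strands. TTTTTTT was in the sense strand of 0 of the 10, and on the opposite strand it occurred 2 times in Gm28439 and 1 time in Gm13340. In same-length windows at the start of the longest transcripts of the genes that passed the filter, TTTTTTT was found in 3.02 to 17.9%. ATTTA was in the sense strand of 8 of the 10, with 6 occurrences in Gm13340, 4 in Gm10925, 2 in Gm28439 and Gm29216, 1 in Gm10222, Gm28437, Gm13341 and Gm13339, and 0 in Gm28438 and Gm28661. On the opposite strand ATTTA occurred 2 times in Gm10925, Gm28661, Gm13341 and Gm13340, and 1 time in Gm28438, Gm28437 and Gm13339. It was absent from that strand in Gm28439, Gm10222 and Gm29216. In the sense strand, the windows held ATTTA in 8.38 to 53.3%, depending on length. They come from transcript starts and were matched to the copies in length but not in base composition. Whether the copies hold more ATTTA than like sequence was therefore not tested. Both motifs share a run of T but neither contains the other. T made up between 27.5% of the bases in Gm13341 and 32.5% in Gm28438.

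The nuclear genes whose proteins transcribe, process and translate mitochondrial RNA did not pass the test. Of 43 such gene names, 41 were listed and 8 passed the filter. limma called 0 of the 8 in either direction. Without adjustment, 2 were higher and 1 lower at p under 0.05 in limma, beside 27.9% of all genes higher and 3.19% lower. Without IgG 1, where 38.6% of all genes were called higher, limma called 2 of the list, Grsf1 and Tfam; Tfam, a transcription factor of mitochondrial DNA, is named after its values were seen. Their median log2 fold change was 0.46, below the 0.92 of all genes. Grsf1, which binds G-rich mitochondrial transcripts, had 6.02, 3.02 and 4.48 RPKM across HuR 1 to 3, against 1.73, 0.107 and 0 RPKM across IgG 1 to 3, a limma log2 fold change of 2.47 with SE 0.78 and adjusted p = 0.072. Ptcd3, a protein of the mitochondrial ribosome, had 22.2, 29.9 and 12.4 RPKM across HuR 1 to 3, against 539, 40.1 and 63.2 RPKM across IgG 1 to 3, a limma log2 fold change of -2.43 with SE 1.12 and adjusted p = 0.145. IgG 1 stood far above the other 5 libraries. Supv3l1, a mitochondrial RNA helicase, differed by 1.09 on the log2 scale (SE 0.72) with an adjusted p of 0.286 in limma, and Taco1, a translational activator of mt-Co1, had 5.86, 0 and 0.408 RPKM across HuR 1 to 3 against 0, 0.882 and 0.0272 RPKM across IgG 1 to 3 and did not pass the filter. Elavl1, which encodes HuR, was at 0.748 ± 0.385 RPKM with HuR and 0.187 ± 0.291 RPKM with IgG (SD, n = 3 each), a limma log2 fold change of 0.88 with SE 0.51 and adjusted p = 0.228.

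The genes whose pattern over the 6 RIP libraries was most like the mean pattern of the copies were protein-coding. Likeness was the root mean square difference of gene-centred log2(RPKM + 0.5) over 5496 candidates. Rnase4, a secreted ribonuclease, was closest at 0.22, with 60.6, 40.3 and 57.2 RPKM across HuR 1 to 3, against 7.13, 3.41 and 3.28 RPKM across IgG 1 to 3. Next were Cyp3a11, a drug-metabolising cytochrome P450, at 0.265 and Serp1, a protein of the endoplasmic reticulum, at 0.30. They were followed by Chchd2 at 0.313, a mitochondrial protein encoded in the nucleus, and Cyp2c50, another cytochrome P450, at 0.334. Of the copies themselves, which all enter that mean, Gm28439 was closest to the mean pattern at 0.312 and Gm13341 farthest from it at 1.35.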

How the data were processed

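RNA from HuR pull-downs, IgG pull-downs and Input was made into Ion total RNA libraries, per the labels' protocols. The submitters' processing notes name Bowtie2, featureCounts and mm10, without versions. The deposited values are RPKM per exon, with authors' log2 folds over Input and a p-value and q-value per exon. The deposited p-value and q-value were not used. Values from 1 upward lacked their decimal mark, which was restored from the authors' log2 folds: each of 138826 distinct value lines fitted all 6 folds, and 5 had more than 1 possible reading, of which the one with most decimals was taken. Exon values were multiplied by length, summed per gene over all lines, repeated exons included, and divided by merged exon length. Each copy is 1 exon. Library sizes came from the value of 1 read in RPKM, in single-line genes that overlap no other line. Of their low values above 0, 97.6 to 99.9% were then whole reads within 0.05. As the sizes were picked to give whole reads, this is no independent check.

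The members and lists were chosen with earlier results of these data known. The HuR and IgG pull-downs were set against each other in limma 3.58.1 under R 4.3.3 (trend, robust) on log2(RPKM + 0.5), for genes reaching 0.5 RPKM in 3 of 6 libraries, two-sided, Benjamini-Hochberg threshold 0.05, tested on simulated data first. As the values are RPKM, no count model was run. Copies were aligned to mitochondrial gene transcripts of GENCODE M21 with blastn 2.17.0 (e-value 1e-20, at least 50% aligned). The mitochondrial genome as a whole was not used here. All 10 copies were named, with the 5 other copies and up to 4 mitochondrial expression proteins of highest mean, the 5 genes most alike and Elavl1. Myo3a was added after the position of the copies was seen. The alternatives were other scalings, filters, pseudocounts, no trend, a replicate block, distinct exons counted once and libraries left out. Scripts ran in Python 3.11.15 with pandas 2.3.3, numpy 2.4.6, matplotlib 3.10.9 and scipy 1.17.1.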

Additional observations from a re-analysis of the deposited data

How the results depend on the processing

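All 10 copies kept a positive log2 fold change of HuR RIP over IgG RIP in each of 16 alternative settings, 160 values in all. Only the settings that rescale the libraries could have changed that sign. Each copy was higher in every HuR library than in any IgG library, so the other settings had to give a positive value. The number of calls moved widely. Over all genes, calls numbered 37 higher and 7 lower. They were 1 and 18 with libraries centred at their medians, 5 and 4 with quantile normalization, 0 and 0 with no filter, 145 and 21 with a filter of 1 RPKM, 3 and 1 with a pseudocount of 1, 4 and 1 with no trend, 0 and 0 with distinct exons counted once, and 294 and 21 once HuR 3 and IgG 1 were left out together. TMM scaling gave 50 higher and 342 lower. Leaving out 1 library at a time gave 0 to 1761 higher and 0 to 30 lower, with 1761 higher without IgG 1 and 0 without IgG 2. Of the copies, 1 was called, against 0 with centring, 2 with TMM, 4 with quantile normalization, 0 with no filter, 3 with the filter of 1 RPKM, 0 with distinct exons counted once, 7 without HuR 3 and IgG 1, and 0 to 10 with 1 library left out. Single copies were followed in the 16 settings, which leave out the fit with no trend. Over these 16, the call of Gm13341 had an adjusted p between 0.000281 and 0.540 in limma. It was lost with centring, no filter, the block, distinct exons counted once and without IgG 2. The cause was not tested.

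The copies' median of 3.29 was 2.19 with centring and 1.67 with TMM, and 3.04 to 3.79 with 1 library left out. The median of all genes, 0.92, was -0.18 with centring, 0.09 with TMM and 0.05 with quantile normalization. Relative to it, the copies stood 2.37 higher, 1.58 with TMM, 3.50 with quantile normalization and 3.20 with no filter. The median of the mitochondrial expression proteins, 0.46, reversed in sign to -0.64 with centring, which moves all genes by the same amount, -0.10 with TMM, -0.37 with quantile normalization and -0.95 without HuR 3 and IgG 1, and 2 of them were called with TMM and without IgG 1. Against Input, the copies' median in HuR RIP was 2.46, and 1.43 when scaled to exons outside the ribosomal repeat. The share of listed reads was 0.633% in HuR RIP and 0.0549% in IgG RIP, against 1.10% and 0.114% outside the ribosomal repeat and 2.83% and 0.394% over protein-coding genes.

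The replicate numbers were shared by HuR and IgG. Deviations of same-numbered libraries correlated at 0.138, 0.117 and 0.086, so not every pair passed 0.1, although each library correlated best with its own number. If HuR 2 and 3 are numbered the other way round, the pairs change: HuR 2 correlated with IgG 3 at -0.0015 and HuR 3 with IgG 2 at -0.068. With the number as a replicate block, 0 genes were called higher and 0 lower, and 0 of the copies were called. Depth limits Gm13339 most, at 16 reads in IgG 2. The copies' reads cannot be told apart from mitochondrial reads where the letters are the same, and the Input mean has no depth or spread.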
